A study of Mus musculus with 6 samples.

Results

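White fat cells surround the abdominal aorta, and their transcripts are read together with those of the vessel wall when whole tissue is sequenced. The genes described here are 33 genes of white adipocyte identity and lipid storage, taken by gene name from a deposited table of raw read counts for 54532 genes, where each name matched 1 row. The tissue was abdominal aorta of Olfr2 KO mice and of WT mice, both at day 7 after induction of an aneurysm, with 3 libraries per genotype. The labels give neither strain, age nor sex, and do not say how the knockout was made, how the aneurysm was induced or how many animals gave a library, and p-values therefore cover only how these libraries spread.

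A white adipocyte stores triglyceride in 1 large droplet. The transcription factors PPARγ and C/EBPα establish and maintain the cell, perilipins and CIDEC coat the droplet, lipases empty it, and enzymes of fatty acid and triglyceride synthesis fill it. The cell also secretes hormones such as adiponectin and leptin. In mice the fat around the abdominal aorta is largely of the white type.

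The libraries held 17248918 to 21872027 gene counts. Olfr2 itself had 0 counts in all 6 libraries, which allows up to 0.137 to 0.174 CPM (a gene's reads scaled to a common library size), so its count checks no label. A pair of libraries stood apart in other ways. KO replicate 3 held 1288 CPM of 10 skeletal muscle transcripts, against 6.02 and 7.52 CPM in the other KO libraries and 6.96 to 21.1 CPM in WT libraries. The macrophage lysozyme gene Lyz2 stood at 4128 to 5898 CPM in KO libraries, and at 31.7 CPM in WT replicate 2 beside 3871 and 4630 CPM in the other WT libraries. The part of either in the results below was not tested.

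All 33 genes had a higher mean in KO, as did 51.2% of all tested genes. WT replicate 3 was as high as the KO libraries for most of the 33. Together they took 0.789, 0.636 and 0.407% of all counts in the KO libraries (replicates 1 to 3), and 0.147, 0.135 and 0.497% in the WT libraries (in the same replicate order) (the exact 95% binomial interval, for counting error alone, was 0.785 to 0.793% in KO replicate 1 and 0.133 to 0.136% in WT replicate 2). Thus all KO libraries lay above WT replicates 1 and 2, and WT replicate 3 lay inside the KO range. All 33 passed the filter on low counts and were tested with edgeR's quasi-likelihood test, Benjamini-Hochberg adjusted over 16237 genes. None of the 33 had an adjusted p under 0.05, against 0.0123% of all tested genes (2 genes), and their adjusted p ran from 0.157 to 0.892. At an unadjusted p under 0.05, 14 of the 33 were higher in KO, which is 42.4% against 5.23% of all tested genes, and 0 were lower, against 6.08%. That count rested on single libraries: it was 3 without KO replicate 1, 4 without WT replicate 1, 4 without WT replicate 2, 8 without KO replicate 2, 20 without KO replicate 3 and 31 without WT replicate 3, and 7 in a robust fit of all libraries. The KO libraries all lay above the WT libraries for 6 of the 33, or 18.2% against 7.83% of all tested genes. The median log2 fold change of the 33 was 1.19, beside 0.01 for all tested genes. In bulk tissue, fewer fat cells and less RNA per fat cell cannot be told apart.

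**Figure D1:**
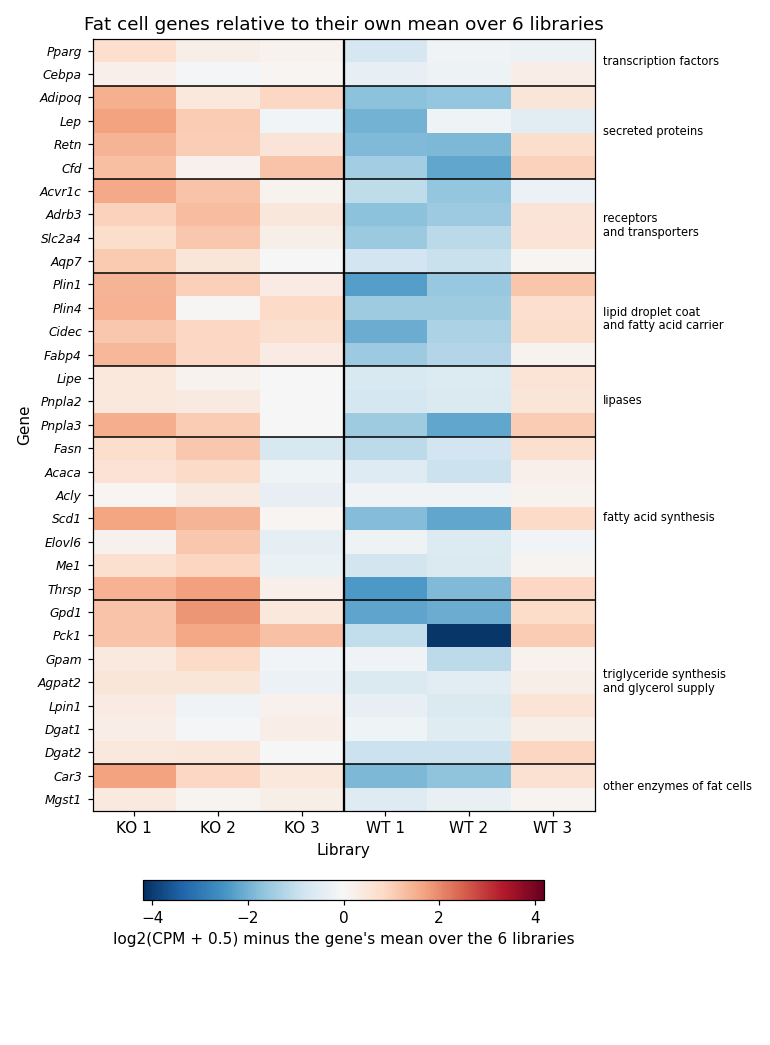
Heat map of the 33 genes (rows, grouped by role) in the 6 libraries (columns, KO left of WT). Colour gives log2(CPM + 0.5) minus the gene's own mean over the 6 libraries, from blue (below) to red (above). WT replicates 1 and 2 are blue for nearly every gene, while WT replicate 3 carries the colours of the KO libraries for most, and the lowest cell, -4.09, is Pck1 in WT replicate 2.

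The master regulators differed from each other, with a larger fold change for Pparg than for Cebpa. Pparg encodes the nuclear receptor on which fat cell formation depends (ENSMUSG00000000440, chromosome 6, 115360951 to 115490399, plus strand, GRCm38). It had 32.2, 23.4 and 22.2 CPM in the KO libraries (replicates 1 to 3), against 11.9, 17.8 and 16.8 CPM in the WT libraries (in the same replicate order). The groups did not overlap, and WT replicate 3 was not the highest of its group. The log2 fold change was 0.74 (SE 0.20, unadjusted p = 0.00523, adjusted p = 0.208 by edgeR). Cebpa encodes C/EBPα, which works with PPARγ (ENSMUSG00000034957, chromosome 7, 35119293 to 35121928, plus strand). It had 151, 126 and 138 CPM in KO libraries and 102, 111 and 157 CPM in WT libraries, a log2 fold change of 0.16 (SE 0.17). Here the highest library of all 6 was WT replicate 3.

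Secreted products of fat cells had larger fold changes than Pparg and Cebpa. Adipoq encodes adiponectin, a hormone made almost only by fat cells (ENSMUSG00000022878, chromosome 16, 23146536 to 23158028, plus strand). It had 191, 91.5 and 123 CPM in KO libraries and 20.2, 21.6 and 96.4 CPM in WT libraries. WT replicate 3 exceeded KO replicate 2, so the groups overlapped, and edgeR fitted a log2 fold change of 1.55 with an SE of 0.57 (adjusted p = 0.337). Cfd encodes complement factor D, also called adipsin (ENSMUSG00000061780, chromosome 10, 79890853 to 79892655, plus strand). Its levels were 833, 399.6 and 802 CPM in KO, against 127, 76.3 and 689 CPM in WT, with the same overlap and a log2 fold change of 1.19 (SE 0.70). Retn, the gene of resistin, had a log2 fold change of 1.54 (SE 0.66).

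Leptin did not follow adiponectin in WT replicate 3. Lep, the satiety hormone gene, was shown by library after its values were seen (ENSMUSG00000059201, chromosome 6, 29060220 to 29073877, plus strand). It had 117, 81 and 33 reads in the KO libraries (replicates 1 to 3) and 1, 24 and 19 reads in the WT libraries (in the same replicate order), which is 6.71, 4.14 and 1.54 CPM against 0.0544, 1.46 and 1.09 CPM. The exact Poisson 95% interval of KO replicate 3, 1.06 to 2.16 CPM, covers the values of WT replicate 2 and WT replicate 3, so the distance between KO replicate 3 and these libraries is within counting error at this depth. Per read of Adipoq, Lep stood at 0.0352, 0.0453 and 0.0125 in KO libraries and at 0.0027, 0.0674 and 0.0113 in WT libraries.

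Receptors and transporters of fat cells were low in level and had high ratios. Acvr1c, an activin receptor (ALK7) that curbs lipolysis in mouse fat cells, had the highest log2 fold change of the 33, 2.42 (SE 0.57, unadjusted p = 0.00216, adjusted p = 0.157, edgeR; ENSMUSG00000026834, chromosome 2, 58267453 to 58357895, minus strand). Its levels were 7.46, 5.53 and 2.42 CPM in KO, against 0.761, 0.364 and 1.73 CPM in WT, and the groups did not overlap. Adrb3, the adrenergic receptor that drives lipolysis in mouse fat, had 13.4, 16.9 and 9.32 CPM in KO libraries and 1.63, 1.94 and 9.90 CPM in WT libraries. Of its exon bases, 24.9% lie on exons of a second gene, which leaves its count uncertain. Slc2a4, which encodes the insulin-responsive glucose transporter GLUT4, showed 11.6, 15.7 and 8.25 CPM in KO and 1.96, 2.85 and 10.3 CPM in WT. In both genes WT replicate 3 lay above KO replicate 3. Aqp7, the glycerol channel, had a log2 fold change of 1.26 (SE 0.42).

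**Figure D2:**
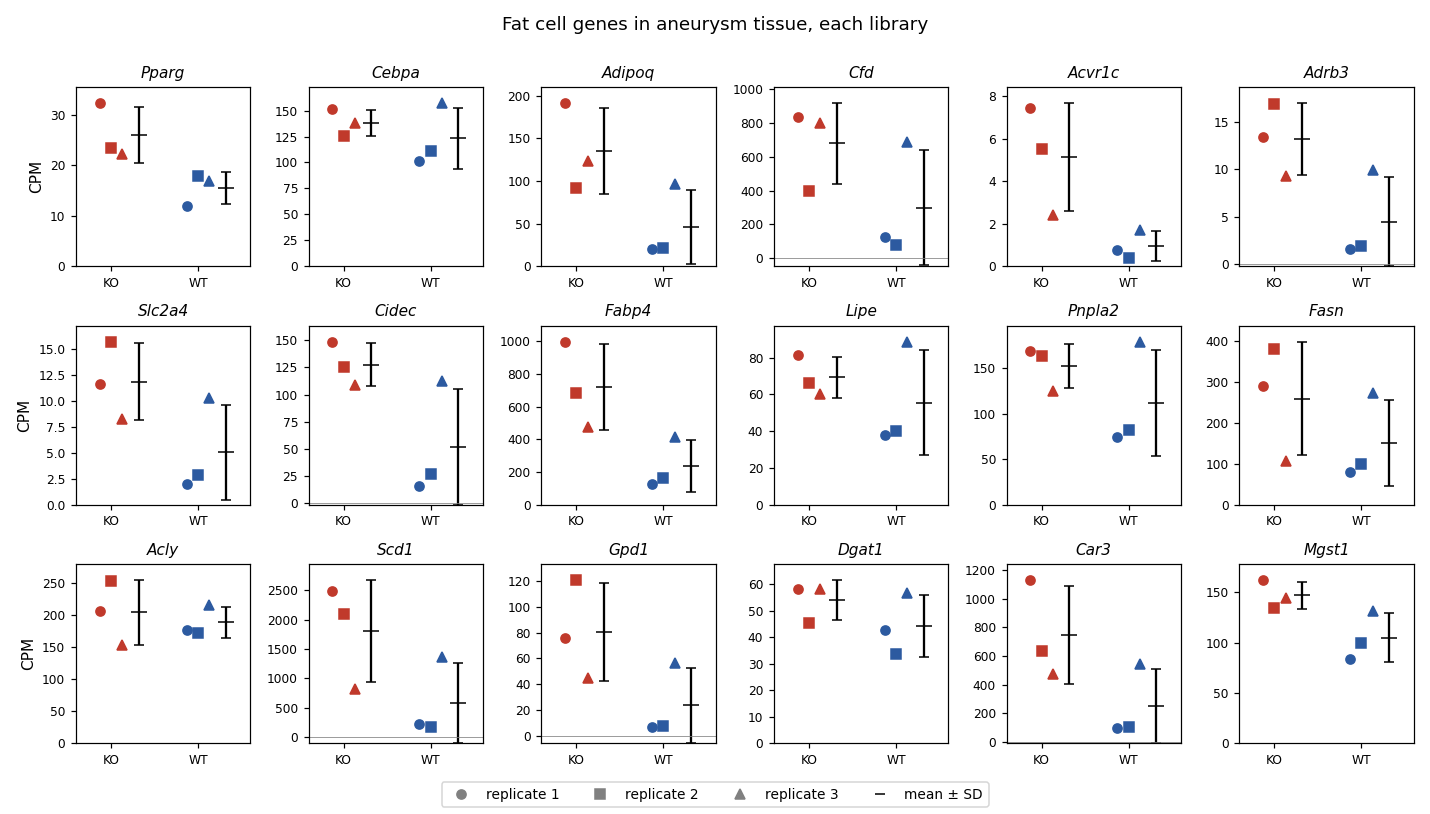
Level in CPM (vertical axis, which includes 0) of 18 of the genes in each library, KO left of WT, with circles, squares and triangles for replicates 1 to 3 and a black mark for the mean ± SD of 3 libraries. In most panels the WT triangle stands at the height of the KO points while the WT circle and square stand well below, and in Pparg, Acvr1c, Fabp4 and Mgst1 the groups do not overlap.

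Genes of the droplet surface and the cytosolic fatty acid carrier overlapped between the genotypes except for Fabp4. Fabp4, the fatty acid binding protein aP2, which macrophages also make, had 997, 687 and 474 CPM in KO libraries (ENSMUSG00000062515, chromosome 3, 10204088 to 10208576, minus strand). WT libraries held 129, 161 and 418 CPM of it, all below KO, with a log2 fold change of 1.61 (SE 0.44, unadjusted p = 0.00516, adjusted p = 0.206, edgeR). Cidec, which fuses droplets into 1 large one, had 149, 125 and 109 CPM in KO and 15.5, 27.0 and 113 CPM in WT. The groups met only because WT replicate 3 passed KO replicate 3, and the log2 fold change was 1.30 (SE 0.59). The perilipins of the droplet coat had a log2 ratio of 1.13 for Plin1 (SE 0.76) and of 1.25 for Plin4 (SE 0.59). Plin1 differed 9.01-fold between WT replicate 3 and the mean of WT replicates 1 and 2, close to the 8.02-fold between the KO mean and the same mean.

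Lipases, which release stored fatty acids, overlapped between the genotypes. Pnpla2 encodes ATGL, the enzyme that starts triglyceride breakdown, and had 169, 164 and 125 CPM in KO libraries against 74.5, 81.6 and 179 CPM in WT libraries. Lipe, hormone-sensitive lipase, had 81.7, 66.0 and 60.1 CPM in KO against 37.9, 40.02 and 88.6 CPM in WT. WT replicate 3 was the highest of all 6 libraries in both, and the log2 fold changes were 0.45 (SE 0.31) and 0.32 (SE 0.30). Of the exon bases of Lipe, 15.6% overlap another gene. Pnpla3, a relative of ATGL that insulin and sterol signals induce, had the widest ratio of WT replicate 3 to the mean of WT replicates 1 and 2, 10.5-fold.

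Enzymes of fatty acid synthesis held the largest share of the counts. Scd1, the desaturase that makes oleate (ENSMUSG00000037071, chromosome 19, 44394455 to 44407879, minus strand), made up 31.9, 34.3 and 19.9% of the counts of the 33 genes in the KO libraries (replicates 1 to 3) and 15.4, 12.1 and 27.3% in the WT libraries (in the same replicate order). Its level was 2488, 2098 and 825 CPM in KO, against 221, 172 and 1369 CPM in WT, where edgeR fitted a log2 ratio of 1.62 with an SE of 0.75 (adjusted p = 0.467). Per kilobase of merged exon, Scd1 averaged 369 CPM in KO and 120.1 CPM in WT, second among the 33 to Cfd with 735 CPM in KO and 323 CPM in WT. At the other end, Acvr1c averaged 0.553 CPM per kilobase in KO and 0.102 CPM per kilobase in WT. Exons were merged over all annotated transcripts, so this order is uncertain. For Fabp4 the merged length, 4489 bases, was the whole span of the gene, and its 160 CPM per kilobase in KO may be too low.

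Fasn, the fatty acid synthase (ENSMUSG00000025153, chromosome 11, 120805846 to 120824547, minus strand), had 289.9, 379.5 and 107 CPM in KO and 80.4, 98.7 and 272 CPM in WT. Its KO libraries spanned a wider range than the gap between the group means, and the log2 fold change was 0.78 (SE 0.52). Acly makes the cytosolic acetyl-CoA used by many cell types and had the lowest log2 fold change of the 33, 0.11 (SE 0.18). It had 207, 253 and 153 CPM in KO libraries and 177, 173 and 217 CPM in WT libraries, with KO replicate 3 the lowest of all. Acaca (0.81, SE 0.31) and Me1 (0.90, SE 0.31), which supply malonyl-CoA and NADPH, had unadjusted p of 0.0298 and 0.0184. The log2 ratio was 1.66 (SE 0.77) for Thrsp, a lipogenic regulator, and 0.75 (SE 0.34) for the elongase gene Elovl6.

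Triglyceride assembly split into a pair of glycerol-supplying genes with large ratios and a set of other enzymes with smaller ones. Gpd1, which makes glycerol 3-phosphate (ENSMUSG00000023019, chromosome 15, 99717515 to 99725005, plus strand), had 75.6, 121 and 44.8 CPM in KO and 6.69, 7.34 and 56.8 CPM in WT. WT replicate 3 was above KO replicate 3, and the log2 fold change was 1.77 (SE 0.75). Of its exon bases, 12.97% overlap another gene. Pck1, the rate-limiting enzyme of glyceroneogenesis in fat, was shown by library after its values were seen, with 64.7, 85.7 and 65.4 CPM in KO against 13.2, 1.15 and 58.5 CPM in WT. The groups did not overlap, and WT replicate 2 rested on 19 reads where WT replicate 1 had 242. The log2 fold change of Pck1 was 1.57 with an SE of 0.86 (unadjusted p = 0.103, adjusted p = 0.548, edgeR). Dgat1, which adds the last fatty acid, had 58.1, 45.2 and 58.3 CPM in KO and 42.7, 33.5 and 56.8 CPM in WT, a log2 fold change of 0.28 (SE 0.19). Gpam, Agpat2 and Dgat2, which add acyl chains along the same route, had log2 ratios of 0.69, 0.53 and 0.35, and Lpin1, which removes a phosphate, had the lowest of these enzymes, 0.18.

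A pair of enzymes that are abundant in fat complete the set. Car3, a carbonic anhydrase of fat, liver and slow skeletal muscle (ENSMUSG00000027559, chromosome 3, 14863512 to 14872523, plus strand), had 1127, 635 and 476 CPM in KO and 93.7, 107 and 547 CPM in WT. KO replicate 3, where skeletal muscle transcripts were high, had the lowest Car3 of the KO libraries. The same library was the lowest KO library for most of the genes described here. The part of skeletal muscle in the Car3 level was not tested. For Car3, edgeR fitted a log2 fold change of 1.58 with an SE of 0.64 (adjusted p = 0.392). Mgst1, a microsomal glutathione transferase found in many cells, had 162, 135 and 144 CPM in KO libraries, all above the 83.3, 99.9 and 132 CPM of WT libraries. The distance between KO replicate 2 and WT replicate 3 was small, and the log2 fold change was 0.49 (SE 0.17, unadjusted p = 0.0182, adjusted p = 0.315, edgeR).

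**Figure D3:**
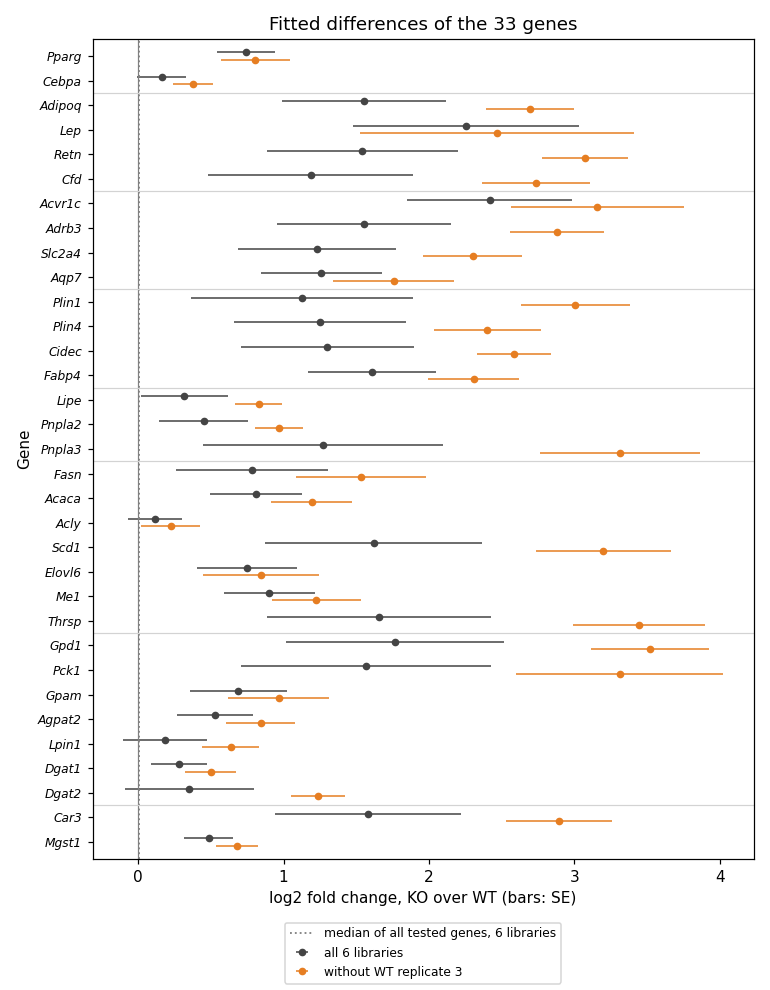
Fitted log2 fold change of KO over WT (horizontal axis, bars show the SE) for the 33 genes grouped by role, with all 6 libraries in grey and without WT replicate 3 in orange; the dotted line is the median of all tested genes. All grey points are above 0 with wide bars, and without WT replicate 3 every point moves to the right, to 3.52 for Gpd1.

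WT replicate 3 was the library whose removal separated the genotypes most. It was the highest WT library for 31 of the 33 genes, the exceptions being Pparg and Lep, while it was the highest for 29.4% of all tested genes. It lay within the KO range for 22 genes, above all KO libraries for 5 and below them for 6. For 22 genes it was over 2-fold the mean of WT replicates 1 and 2, as were 3.09% of all tested genes. The median of this ratio over all 33 genes was 3.03-fold. With WT replicate 3 the highest WT library for 31 of the 33, leaving it out was bound to raise most fold changes. The calls that follow are therefore no added support for a difference between genotypes. Without WT replicate 3, edgeR's test with 3 KO and 2 WT libraries gave 16 of the 33 an adjusted p under 0.05, all higher in KO, where 0.450% of all tested genes were called higher. The median log2 fold change was then 2.30. The 16 included Gpd1 (3.52, SE 0.41, adjusted p = 0.0132), Thrsp (3.44, SE 0.46), Scd1 (3.20, SE 0.46), Retn (3.08, SE 0.30), Plin1 (3.01, SE 0.37) and Adipoq (2.70, SE 0.30, adjusted p = 0.0132). Of the 6 genes whose groups did not overlap with all libraries in, Fabp4 was among the 16, and Acvr1c, Mgst1, Pck1, Pparg and Lep were not (adjusted p from 0.0558 to 0.361). Leaving out any other single library gave 0 of the 33, and testing all genes with at least 1 count gave 17, all higher, where 1.16% of the genes so tested were called higher. DESeq2's test on all 6 libraries called Pparg (adjusted p = 0.0335) and Acvr1c (adjusted p = 0.00084) as higher, where 1.03% of all tested genes were called higher.

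The KO libraries differed among themselves, in part by role, with 2 to 7 genes in a role. KO replicate 3 was the lowest KO library for 25 of the 33 genes, against 33.05% of all tested genes. KO replicate 1 was the highest for 4 of 4 secreted products, 4 of 4 droplet and carrier genes and 3 of 3 lipases. Among all tested genes it was the highest KO library for 33.7%. KO replicate 2 was instead the highest for 6 of 7 genes of fatty acid synthesis, all but Scd1, and for 5 of 7 genes of triglyceride synthesis. Its share over all tested genes was 33.1%. Receptors and transporters were split, with 2 genes highest in KO replicate 1 and 2 in KO replicate 2. Per read of Adipoq, Fasn stood at 1.52, 4.15 and 0.870 in KO replicates 1 to 3 and at 3.99, 4.57 and 2.82 in WT replicates 1 to 3. Elovl6 and Gpd1 likewise had more reads per read of Adipoq in KO replicate 2 than in the other KO libraries, 0.410 against 0.101 and 0.105 for Elovl6 and 1.32 against 0.396 and 0.363 for Gpd1. Some transcripts of brown and beige fat were also highest in KO replicate 2, and their part was not tested. The uncoupling protein gene Ucp1 had 0.574, 16.1 and 0.559 CPM in KO libraries and 0.0544, 0.243 and 2.48 CPM in WT libraries, and the 10 brown and beige genes summed to 32.8, 92.8 and 47.0 CPM in KO and 13.9, 14.2 and 26.4 CPM in WT. That sum was carried by Ucp1, Cidea and Cox8b, with 16.1, 27.5 and 22.5 CPM in KO replicate 2. Other genes of the list ran otherwise, as Dio2 (7.06, 4.45 and 7.97 CPM) and Prdm16 (12.5, 12.1 and 21.1 CPM) were lowest in KO replicate 2 of the KO libraries.

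**Figure D4:**
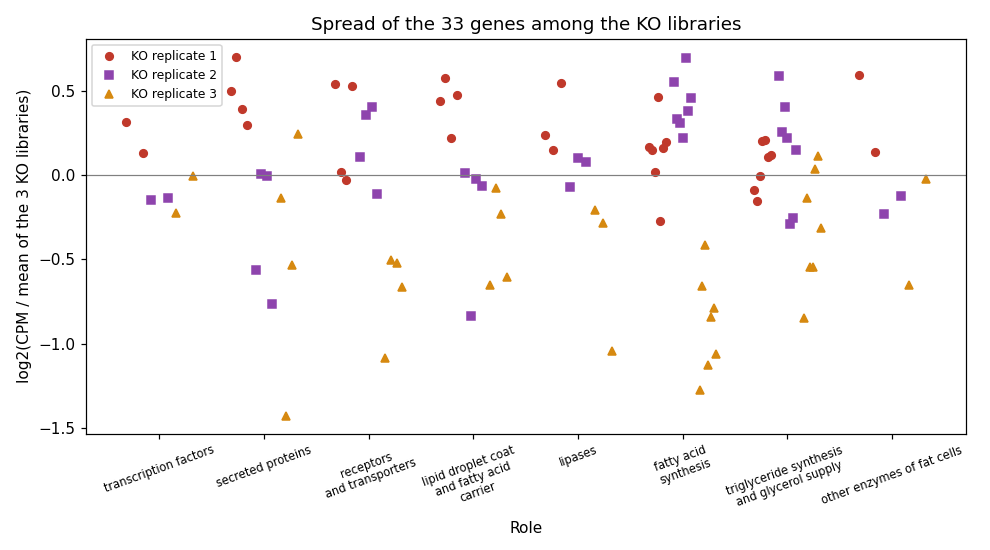
Each point is 1 gene in 1 KO library, placed by role (horizontal axis), and the vertical axis gives log2 of its CPM over the mean of the 3 KO libraries. Red circles (KO replicate 1) lead among secreted products and droplet genes, purple squares (KO replicate 2) lead among synthesis genes, and orange triangles (KO replicate 3) are lowest for 25 of 33 genes.

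Set against Adipoq, 15 of the other 32 genes had more reads per Adipoq read in WT replicates 1 and 2 than in every other library. Adipoq itself was low in WT replicates 1 and 2 (20.2 and 21.6 CPM). A gene with a smaller fold change than Adipoq therefore tends to a high ratio there, and the count largely restates the fold changes. The share of all tested genes was not computed. They included 2 of 2 transcription factors, 5 of 7 genes of triglyceride synthesis and 4 of 7 of fatty acid synthesis, with 0 of 3 other secreted products and 0 of 4 droplet and carrier genes. The genes given next were chosen after their values were seen. Acly had 1.08, 2.77 and 1.24 reads per Adipoq read in KO libraries and 8.77, 8.02 and 2.25 in WT libraries. Cebpa had 0.792, 1.37 and 1.12 in KO and 5.05, 5.15 and 1.63 in WT. Car3, in contrast, had 5.90, 6.94 and 3.86 in KO and 4.65, 4.98 and 5.67 in WT, and Plin4 had 0.720, 0.565 and 0.710 in KO and 0.860, 0.815 and 0.846 in WT. For Car3, WT replicates 1 and 2 lay inside the range of the KO libraries, and for Plin4 all WT libraries lay above it.

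A further 11 white adipocyte markers outside the 33 were read. Their list was also chosen with earlier results of these data known, so it is no independent check of the label. All 11 had reads in every library and a higher mean in KO. Their summed level was 228, 181 and 162 CPM in KO libraries and 100.1, 86.9 and 160.2 CPM in WT libraries. Much of that sum was Pde3b, with 65.6, 67.4 and 67.4 CPM in KO and 64.3, 50.9 and 69.2 CPM in WT. Its log2 fold change was 0.12 (SE 0.13), so the sum understates how far the other markers differed. Adig, a small protein of fat cells, had 9.81, 7.47 and 4.24 CPM in KO and 0.924, 0.182 and 4.78 CPM in WT, so WT replicate 3 was again high. Nnat, a proteolipid of neurons and fat cells, had 6.66, 6.09 and 8.11 CPM in KO and 2.55, 1.64 and 2.82 CPM in WT, where WT replicate 3 stayed near its group. Of the 11 markers 0 were called over all genes, and 6 had an unadjusted p under 0.05, all higher in KO, led by Nnat (log2 fold change 1.57, SE 0.27, adjusted p = 0.102, edgeR).

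Markers of other cell types were read beside the 33. Hepatocytes also express Scd1, Thrsp, Pck1 and Car3. Albumin (Alb) was at most 0.287 CPM in KO and 0.115 CPM in WT and Fgb had 0 counts in all libraries. Apoa1, Ttr and Serpina1a were likewise at or near 0, at most 0.115 CPM in KO and 0.0576 CPM in WT. The remaining hepatocyte marker, Cyp2e1, which fat also expresses, had 278, 186 and 260 CPM in KO and 31.0, 63.4 and 241 CPM in WT. Macrophages also express Fabp4 and Pparg. Their 10 markers summed to 8017 to 10830 CPM in KO and 6361 to 9004 CPM in WT, a sum that Lyz2 dominated. Without Lyz2 it was 3889 to 4932 CPM in KO and 3961 to 6330 CPM in WT, highest in WT replicate 2. Of the 10 markers 4 had a higher mean in KO. Adgre1 had a log2 fold change of -0.13 (SE 0.22). Mrc1 had one of 0.38 (SE 0.15) and was the only macrophage marker with an unadjusted p under 0.05 (0.0314, adjusted p = 0.378, edgeR). Genes of adipose progenitors and perivascular fibroblasts summed to 1243 to 1515 CPM in KO and 1736 to 2334 CPM in WT, with 3 of 10 at a higher mean in KO. Much of that sum was Ly6a, with 592, 562 and 795 CPM in KO and 1015, 1568 and 974 CPM in WT. At an unadjusted p under 0.05 (edgeR), 2 of the 10 were lower in KO, Dpp4 and Ly6a, and 1 was higher, Fgf10. Smooth muscle markers summed to 1586 to 2493 CPM in KO and 924 to 1391 CPM in WT, with 7 of 7 at a higher mean in KO. Of these, 6 had an unadjusted p under 0.05 as higher, led by Myh11 (log2 fold change 1.42, SE 0.18, adjusted p = 0.101, edgeR). WT replicate 3 had the lowest smooth muscle sum of all libraries. Mesothelial markers summed to 7.57 to 11.8 CPM in KO and 6.90 to 20.9 CPM in WT. The part of smooth muscle, macrophage, progenitor and mesothelial transcripts in the values of the 33 genes was not tested.

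**Figure D5:**
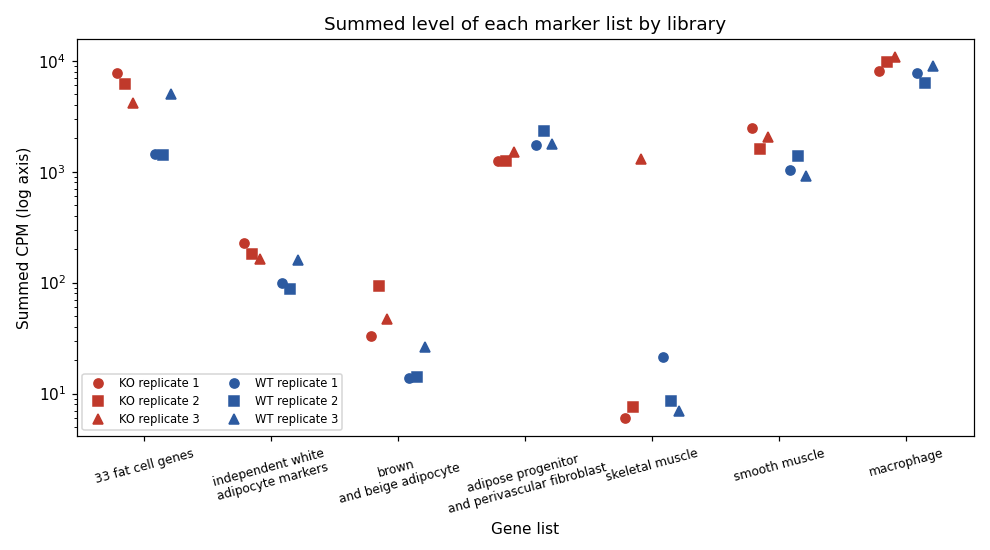
Summed CPM (log axis) of the 33 fat cell genes and of 6 marker lists in each library, KO in red left of WT in blue, with circles, squares and triangles for replicates 1 to 3. WT replicate 3 stands inside the KO range for the 33 genes. It stands just under the lowest KO library for the white adipocyte markers outside the 33 (160.2 CPM), which the axis labels independent. Pde3b, nearly even over the libraries, makes up much of that sum in WT replicates 1 and 2. The KO replicate 3 triangle stands alone for skeletal muscle at 1288 CPM.

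The genes that act beside the 33 were less one-sided. Of the 8 tested genes of other droplet proteins, 7 had a higher mean in KO and 2 an unadjusted p under 0.05, Plin5 (log2 fold change 2.02, SE 0.73) and the droplet-forming Fitm2 (0.65, SE 0.27), while Plin2, the perilipin of most other cells, stood at 0.30 (SE 0.22). Among 10 genes of lipolysis control, 9 had a higher mean and 4 such a p, led by the ATGL inhibitor gene G0s2 (1.29, SE 0.23), the protein kinase A subunit gene Prkar2b (1.001, SE 0.27) and Gnas (0.50, SE 0.15). G0s2 had 18.4, 22.05 and 25.9 CPM in KO and 8.26, 6.85 and 12.0 CPM in WT, without overlap. Of 7 lipid uptake genes 4 had such a p as higher, led by Cd36 (1.48, SE 0.19), Lpl (1.56, SE 0.21) and Vldlr (1.16, SE 0.19). None of these genes was called over all genes tested (edgeR).

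The lists of insulin signalling and of the remaining synthesis enzymes had smaller median fold changes than the 33. Of 10 insulin signalling genes 2 had an unadjusted p under 0.05, both higher in KO, the receptor substrates Irs1 (1.08, SE 0.32) and Irs3 (1.09, SE 0.37). Of 12 other fatty acid enzymes 2 did, Acsl1 (0.68, SE 0.27) and Acss2 (0.60, SE 0.26), and of 9 other triglyceride enzymes 0 did. Of 12 other adipogenic transcription factors, Mlxipl, the carbohydrate-responsive factor ChREBP, was higher (1.75, SE 0.52) and Stat5a lower (-0.38, SE 0.11) at that level. Other adipokines gave 4 of 9 as higher, led by the retinol carrier gene Rbp4 (1.07, SE 0.33). The mean was higher in KO for 7 of 10 insulin signalling genes, 9 of 12 fatty acid enzymes and 5 of 9 triglyceride enzymes. Pcx and Acacb, fatty acid enzymes picked after their values were seen, had WT replicate 3 within the KO range. Pcx had 57.6, 47.8 and 28.8 CPM in KO and 10.2, 12.2 and 53.8 CPM in WT. Acacb had 20.3, 38.9 and 15.2 CPM in KO and 7.17, 7.82 and 22.2 CPM in WT. The median log2 fold changes of these lists ran from 0.06 for other triglyceride enzymes to 0.32 for other adipokines, beside 1.19 for the 33 and 0.01 for all tested genes, and none of their genes was called over all genes tested (edgeR).

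The start regions of the 33 genes were read for the site of C/EBP factors, to which C/EBPα belongs. RefSeq promoter windows on GRCm38.p6, from 250 bases before to 50 after a start, were found for 25 of the 33 genes (34 windows) and not for Fabp4, Dgat1, Dgat2, Scd1, Gpd1, Car3, Adrb3 or Slc2a4. The letters TTGCNNAA, on either strand, stood in windows of 6 of the 25 genes, Cidec, Gpam, Lep, Mgst1, Plin1 and Pparg, which is 17.6% of the 34 windows against 10.8% of all 32851 windows. A direct repeat of AGGTCA with 1 base between, the classical PPARγ site, was in 0 of the 34 and in 0.04% of all. CCAAT was in 29.4% of the 34 and 37.4% of all, and TATAAA in 5.88% and 13.6%. All motifs were searched on both strands, and matches of CCAAT and TTGCNNAA can share letters. A match is a description of letters, not of a bound site.

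The 250 bases before the start are shown for a hormone gene and for both droplet coat genes that hold the match, in capitals. They lie at chr6:29059971-29060220 (plus strand) for Lep, chr6:113434765-113435014 (minus strand) for Cidec and chr7:79732777-79733026 (minus strand) for Plin1. Each is written 5′ to 3′ on the gene's strand.
Lep: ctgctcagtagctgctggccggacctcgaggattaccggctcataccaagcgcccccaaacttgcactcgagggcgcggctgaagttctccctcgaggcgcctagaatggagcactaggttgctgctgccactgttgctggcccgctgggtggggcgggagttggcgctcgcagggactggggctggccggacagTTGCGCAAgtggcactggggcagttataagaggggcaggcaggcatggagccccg
Cidec: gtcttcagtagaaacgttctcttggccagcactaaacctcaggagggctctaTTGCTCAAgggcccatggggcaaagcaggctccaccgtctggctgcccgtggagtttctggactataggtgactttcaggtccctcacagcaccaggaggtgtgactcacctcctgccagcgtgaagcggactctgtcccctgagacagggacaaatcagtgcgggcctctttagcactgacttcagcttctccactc
Plin1: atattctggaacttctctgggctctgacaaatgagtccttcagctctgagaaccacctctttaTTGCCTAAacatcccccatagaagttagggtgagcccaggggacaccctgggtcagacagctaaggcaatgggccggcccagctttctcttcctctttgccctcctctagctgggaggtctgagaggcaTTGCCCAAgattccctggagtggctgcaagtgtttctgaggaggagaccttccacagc
The match begins 55 bases before the RefSeq start in Lep, and 187 and 58 bases before it in Plin1. In Cidec it begins 198 bases before a start that lies inside the gene, and the window before the outer start, chr6:113435761-113436010, holds no match. The GENCODE gene of Plin1 also extends past its RefSeq start, to 79732903, so the match at 58 bases lies inside the gene. In WT replicate 3, Plin1 and Cidec stood at 49.8 and 113 CPM, within their KO ranges of 28.2 to 60.02 and 109 to 149 CPM. Lep stood there at 1.09 CPM, below its KO range, but its distance from KO replicate 3 was within counting error.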

How the data were processed

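The authors deposited raw read counts per gene for 6 libraries. Reads were aligned with HISAT2 2.0.5 and counted with featureCounts 1.5.0-p3 on GRCm38, per the submitters' processing notes. Strand setting, annotation release and the handling of multi-mapped reads were left unstated there. Library totals are given with the results. The deposited counts were tested with edgeR 4.0.16 (R 4.3.3, limma 3.58.1): filterByExpr, TMM factors, quasi-likelihood F test of KO against WT, Benjamini-Hochberg adjustment over 16237 genes, threshold 0.05. CPM values use TMM-scaled library sizes. Alternatives were other scalings, no filter, DESeq2 1.42.0, limma-voom, robust estimation, a replicate block and leaving out each library. The script was tested on simulated counts. Gene positions and exon lengths come from GENCODE M21, and promoters from RefSeq (GRCm38.p6). The 33 genes and all lists were chosen with earlier results of these data known. Values by library are given for the 2 genes of highest mean CPM in each role and the highest and lowest fold change; other genes shown so were chosen after their values were seen. Figures were drawn with matplotlib 3.10.9. The result of 1 gene of the lipid uptake list is not reported here.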

Additional observations from a re-analysis of the deposited data

How the results depend on the processing

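Of the fold changes of the 33 genes under all alternatives, 425 kept their direction and stayed uncalled, and 35 moved past the threshold. With 0 of the 33 called in the main fit, no gene could fall below it. The remaining 2 reversed, Acly at -0.065 without KO replicate 2 and Lpin1 at -0.037 without WT replicate 2. The cause was not tested. Over single libraries left out, Acly ran from -0.065 to 0.284 and Lpin1 from -0.037 to 0.636. With all genes of at least 1 count, edgeR called 644 genes and 17 of the 33. DESeq2's test called 451 genes and 2 of the 33. The robust fit called 1 gene, with 7 of the 33 at an unadjusted p under 0.05, and limma-voom called 0, with 1845 genes and 22 of the 33 at an unadjusted p under 0.05. With the replicate block edgeR called 0 genes, with 1606 genes and 19 of the 33 at an unadjusted p under 0.05. Deviations of same-numbered libraries correlated at -0.101, -0.062 and -0.12, so the numbers do not pair the libraries. Leaving out 1 library at a time gave 0 to 155 genes called, 0 to 16 of the 33 called, 3 to 31 of the 33 at an unadjusted p under 0.05, a median log2 fold change of the 33 of 0.796 to 2.30, and 6 to 30 of the 33 with all KO libraries above WT. The highest of each came without WT replicate 3; without KO replicate 3 the last count was 22 and without KO replicate 2 it was 10. The share of all tested genes so placed was 7.83% with all libraries and 12.1 to 15.4% with 1 left out. Other scalings left 2 genes and 0 of the 33 called. With 3 libraries a group and WT replicate 3 within the KO range, the fold changes are imprecise, and Lep, with 1 to 117 reads, is limited by depth.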
